A study of Homo sapiens with 2 samples.

Results

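EIF4H and the other genes of cap-dependent translation initiation were examined in RKO cells after knockdown of the splicing factor SRSF2. RKO is an established human colon carcinoma line. The set held 10 of the 54261 genes of the count table, namely EIF4H, EIF4B, EIF4A1, EIF4A2, EIF4E, EIF4G1, EIF4G2, EIF4G3, EIF4EBP1 and EIF4EBP2. They were taken by name, with EIF4H chosen by the junction reads of a cassette exon that the study lists in it, and the others as genes of the same eIF4 group or its binding partners. The junction reads were not analysed here, so the values below are total counts per gene and carry no measure of exon use. Of the 10 genes, 9 passed a filter of a mean level of 1 CPM or more (CPM, the counts of a gene scaled to a common library size), as did 12620 genes in all. The comparison was between RKO cells transfected with a control siRNA (si-NC) and RKO cells transfected with an siRNA to SRSF2 (si-SRSF2). There was 1 strand-specific mRNA library for each group, made from total RNA. No difference could therefore be set against a spread between replicates, and no test was made. Each log2 ratio is that of si-SRSF2 over si-NC on CPM plus 0.5. Its 95% interval is that of the scaled ratio of counts without the 0.5, and covers counting error only. At low counts the ratio is drawn toward 0 and the interval is not.

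Most mRNAs carry a cap at the 5′ end that recruits the small ribosomal subunit through the eIF4F complex. In this complex eIF4E binds the cap, eIF4G is the scaffold, and eIF4A is an RNA helicase that opens structure ahead of the subunit. The helicase is stimulated by the RNA-binding proteins eIF4B and eIF4H, and eIF4E is held back by the 4E-binding proteins, which mTORC1 releases from eIF4E by phosphorylation. Signalling through this step is widely studied in cancer cells, including those of the colon.

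The deposited counts came to 19931360 for si-NC and 14512802 for si-SRSF2, so that a limit of 3 counts corresponded to 0.151 and 0.207 CPM. SRSF2, the target of the siRNA, had 1964 counts (98.5 CPM) in si-NC and 713 counts (49.1 CPM) in si-SRSF2, which left 49.9% of the control level (95% interval of the log2 ratio, -1.13 to -0.88). Markers of cell types were checked in both libraries. Of 5 epithelial markers, EPCAM, KRT8 and KRT18 were above 1 CPM in both libraries, while KRT19 and CDH1 were below it, and the summed level was 68.7 CPM in si-NC against 86.1 CPM in si-SRSF2. Of 4 intestinal markers, CDX2 was above 1 CPM in both libraries (10.6 and 10.9 CPM, nearly the whole of the summed level in each), VIL1 had 1 count in each, and CDX1 and LGALS4 were at 0. Of 4 mesenchymal markers, 3 were above 1 CPM (all 4 summed to 31.8 and 32.6 CPM), and none of the 3 leukocyte and 2 endothelial markers was. The higher epithelial sum came mostly from KRT8, at 27.4 and 42.6 CPM, and its part in the values below was not tested. In these whole cultures fewer cells of a type and less RNA per cell cannot be told apart.

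None of the 9 members that passed the filter differed by 1.5-fold or more, against 7.69% of all genes tested (4.18% higher and 3.52% lower in si-SRSF2) and 1.98% of the 4031 genes at least as abundant as the least abundant member. All 9 lay within 1.3-fold, as did 80.8% of all genes tested and 92.3% of those 4031. Both counts are near the shares of genes of like abundance. Their log2 ratios ran from -0.29 for EIF4EBP2 to 0.19 for EIF4B, inside the 10th to 90th percentile of all genes tested (-0.38 to 0.36). For the 4031 abundant genes the same percentiles were -0.28 and 0.23, and EIF4EBP2 lay just below the lower one. The median of the members was -0.10 and that of all genes was -0.02. Of the members, 7 were below 0 and 2 above, a split that became 6 and 3 with upper-quartile factors because EIF4E moved to 0.007. Of all genes tested 53.8% were below 0, and of the 4031 abundant genes 55.7%. The counting interval lay below a ratio of 1 for 5 members (EIF4H, EIF4A2, EIF4G1, EIF4G2 and EIF4EBP2), where 26.7% of all genes did, and above it for EIF4B alone, where 21.0% did. These 6 of 9 members compare with 47.6% of all genes with an interval off 1 either way. The interval narrows with counts, and these shares were not taken for the 4031 abundant genes. The 6 of 9 is therefore not read as an excess. EIF4EBP2 and EIF4B, the members farthest from 0, lay in opposite directions.

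**Figure D1:**
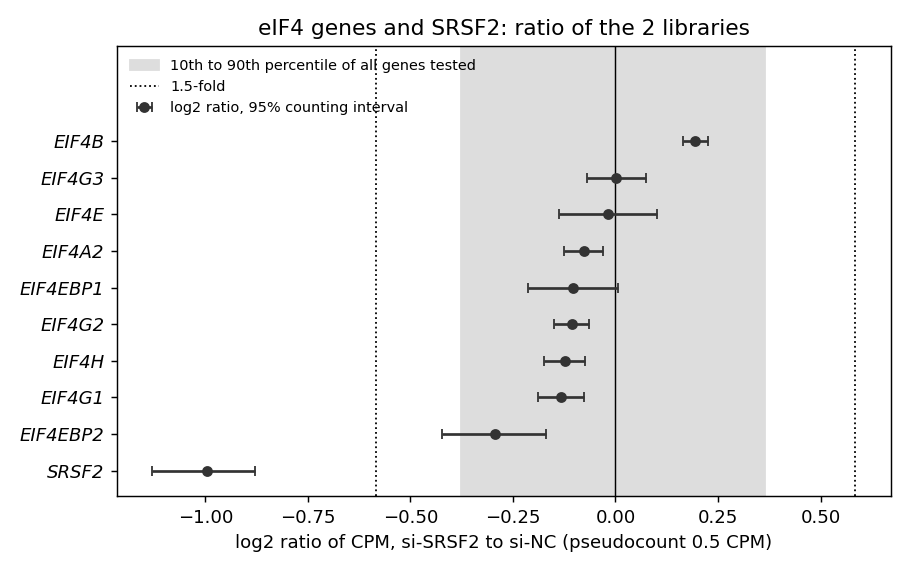
Log2 ratio of si-SRSF2 over si-NC for the 9 eIF4 genes that passed the filter and for SRSF2 (x axis, pseudocount 0.5 CPM); points are single ratios, bars are 95% counting intervals, the grey band spans the 10th to 90th percentile of all genes tested and dotted lines mark 1.5-fold. The eIF4 genes lie between -0.29 and 0.19, within the band, while SRSF2 lies lower, beyond the 1.5-fold line.

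EIF4H encodes an RNA-binding cofactor of the eIF4A helicase. It lies on chromosome 7 at 7q11.23 (GRCh38, chr7:74174231-74197122, plus strand), in the interval deleted in Williams-Beuren syndrome. The canonical transcript EIF4H-201 has 7 exons, 2563 nucleotides and 744 coding nucleotides. EIF4H-202 has 6 exons and 684 coding nucleotides, because it skips exon 5 (chr7:74190247-74190306). This exon is the cassette that put EIF4H on the list. It has 60 nucleotides, or 20 codons, with no in-frame stop, so the reading frame continues whether it is used or not. It was present in 3 of the 7 coding transcripts of the basic GENCODE 44 set. The exon is shown in capitals with 20 intronic bases on each side (chr7:74190227-74190326, plus strand), because it is the part that differs between both forms.
EIF4H exon 5: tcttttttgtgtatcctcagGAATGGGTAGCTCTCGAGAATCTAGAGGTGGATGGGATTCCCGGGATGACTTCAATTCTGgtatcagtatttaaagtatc
The next line gives the sequence that forms when the exon is skipped. It holds the last 30 bases of exon 4, ending at 74189918, in lower case and the first 30 bases of exon 6, starting at 74194741, in capitals.
EIF4H exon 4 to exon 6: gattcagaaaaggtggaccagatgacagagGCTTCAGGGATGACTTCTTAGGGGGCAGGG
SRSF2 is known to bind short exonic motifs written GGNG and CCNG, so the exon was searched for both on the transcribed strand. It held 1 match to GGNG and 2 overlapping matches to CCNG, in capitals below.
EIF4H exon 5 motifs: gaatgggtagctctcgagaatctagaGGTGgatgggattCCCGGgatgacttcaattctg
Of 757 other internal exons of the same length, 80.4% held at least 1 match and 31.8% held at least as many, with a median of 2. Its GC content was 50%, and the median of the other exons was 46.7%. The exon was therefore not set apart by its number of matches. A match describes letters and not a binding site.

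**Figure D2:**
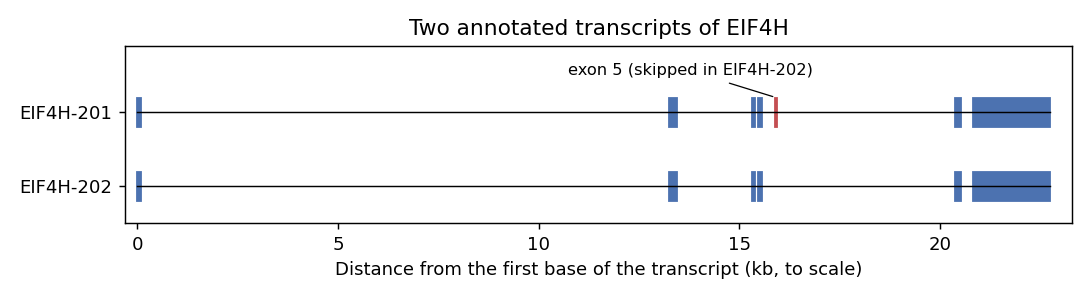
Exons of the annotated transcripts EIF4H-201 and EIF4H-202 as boxes on a line to scale (x axis, kb from the first base of the transcript). Exon 5, 60 nucleotides long and present in EIF4H-201 only of this pair, is in red.

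EIF4H had 8186 counts (411 CPM) in si-NC against 5469 counts (377 CPM) in si-SRSF2. The knockdown library was the lower by a small step, with a log2 ratio of -0.12 (-0.17 to -0.07). This placed EIF4H at percentile 34.2 of the log2 ratios over all genes tested. A count per gene sums the forms with and without exon 5 and cannot separate them.

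EIF4B encodes the other cofactor of the helicase and is a target of S6 kinase. It had the most counts of the members, with 19456 counts (976 CPM) in si-NC against 16213 counts (1117 CPM) in si-SRSF2. Its level was 1.14-fold that of the control library, a log2 ratio of 0.19 (0.16 to 0.22) at percentile 79.4 of all genes tested. It was the single member whose interval lay above a ratio of 1. EIF4B and EIF4H act on the same helicase, and their ratios lay on opposite sides of 0. There were 2.38 EIF4B counts for each EIF4H count in si-NC against 2.96 in si-SRSF2, a log2 change of 0.32 (0.26 to 0.38). This ratio is taken within each library and does not depend on the scaling between them. In EIF4B 11.98% of the exon bases overlap exons of a gene on the opposite strand, as do 4.29% in EIF4A2, and although the library kit keeps the strand, the strand setting of the counting was not given in the sources used here.

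EIF4A1 and EIF4A2 encode near-identical helicases of the complex. EIF4A2 had 8898 counts (446 CPM) in si-NC against 6141 counts (423 CPM) in si-SRSF2, with a log2 ratio of -0.08 (-0.12 to -0.03). EIF4A1 was listed at 0 in both libraries, where the limit of 3 counts is 0.151 (si-NC) or 0.207 CPM (si-SRSF2). It is used by nearly every dividing cell, so this 0 was examined at its locus before any level was read from it. EIF4A1 lies at chr17:7572824-7579006 on the plus strand (GRCh38). All of its canonical exon bases (100%) were shared on that strand with exons of another gene in GENCODE 44, and 83.4% were shared with the readthrough gene SENP3-EIF4A1 (chr17:7563287-7578715). In RefSeq this readthrough gene spans the whole of EIF4A1 and ends with it at 7579006. The study's methods name Ensembl100 with the genome, and the counts may rest on it or on another annotation than GENCODE 44. These shares therefore describe the locus and not the counting. For the other 9 members 0% was shared on the same strand. SENP3-EIF4A1 itself had 4 counts in each library, and SENP3, the upstream gene, had 118 and 92. The small RNAs in introns of EIF4A1 did receive counts. SNORD10 had 103 in si-NC against 62 in si-SRSF2, SNORA48 had 58 and 22, and SNORA67 had 20 and 23. The processed pseudogene EIF4A1P10 had 272 and 293 counts, and 48.5% of its 31-base words occur in the EIF4A1 transcript.

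**Figure D3:**
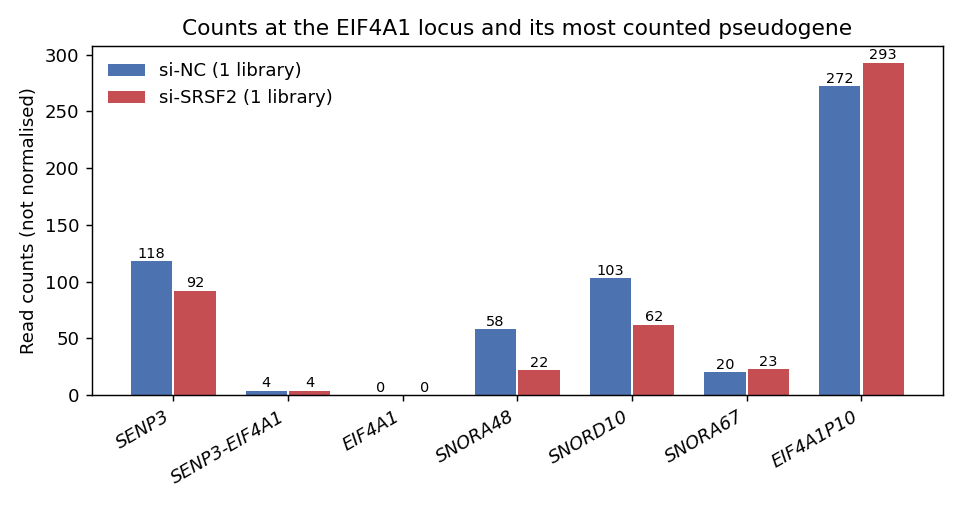
Read counts, not normalised (y axis, from 0), for SENP3, the readthrough gene SENP3-EIF4A1, EIF4A1, its 3 intronic snoRNAs and the pseudogene EIF4A1P10 (x axis) in si-NC (blue) and si-SRSF2 (red), 1 library each. EIF4A1 is at 0 in both while its neighbours range from 4 to 118 counts and the pseudogene has 272 and 293.

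Of 244 protein-coding genes with at least 95% of their exon bases shared on the same strand, 126 (51.6%) were at 0 in both libraries, against 4280 of 16105 (26.6%) with none shared and 384 of 1967 (19.5%) in between. Of 128 readthrough loci listed with both partners, the downstream partner was at 0 in 53 and the upstream partner in 29. Both counts include loci where neither partner had a count, such as INS and IGF2. No share of genes of like level was set beside them. How reads on 2 overlapping genes were counted was not given in the sources used here, and its part in the 0 of EIF4A1 was not tested. No level, ratio or fold was taken for EIF4A1, and the balance of EIF4A2 to EIF4A1 could not be computed.

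The eIF4G proteins are the scaffolds that join the cap-binding protein to the helicase and to eIF3. EIF4G1, the main scaffold, had 6547 counts (329 CPM) in si-NC and 4349 counts (299.6 CPM) in si-SRSF2, a log2 ratio of -0.13 (-0.19 to -0.08). EIF4G3, its paralogue, had 3656 counts (183 CPM) and 2666 counts (184 CPM), with a log2 ratio of 0.002 (-0.07 to 0.07). The balance between the paralogues differed by a small amount. There were 0.558 EIF4G3 counts for each EIF4G1 count in si-NC against 0.613 in si-SRSF2, a log2 change of 0.13 (0.04 to 0.23). EIF4G2, also called DAP5, lacks the part that binds eIF4E and serves other modes of initiation. It had 10835 counts (544 CPM) in si-NC against 7327 counts (505 CPM) in si-SRSF2, with a log2 ratio of -0.11 (-0.15 to -0.06) close to that of EIF4G1.

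EIF4E encodes the cap-binding protein. It had 1376 counts (69.0 CPM) in si-NC and 990 counts (68.2 CPM) in si-SRSF2, and the interval of its log2 ratio of -0.02 ran from -0.14 to 0.10. The interval included 0, whereas with the counts of its pseudogenes added the log2 ratio was -0.11 (-0.22 to -0.01). EIF4EBP1 and EIF4EBP2 encode the proteins that bind eIF4E and keep it from eIF4G. EIF4EBP1 had 1658 counts (83.2 CPM) in si-NC and 1124 counts (77.4 CPM) in si-SRSF2, a log2 ratio of -0.10 (-0.21 to 0.01) whose interval reached 0. EIF4EBP2 had 1364 counts (68.4 CPM) and 809 counts (55.7 CPM), or 0.816 of the control level. Its log2 ratio of -0.29 (-0.42 to -0.17) was the lowest of the members, at percentile 15.3 of all genes tested.

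The inhibitors were also set against EIF4E within each library. There were 0.991 EIF4EBP2 counts for each EIF4E count in si-NC against 0.817 in si-SRSF2, a log2 change of -0.28 (-0.45 to -0.10). For EIF4EBP1 the ratio to EIF4E went from 1.20 to 1.14, a log2 change of -0.09 (-0.25 to 0.08) whose interval included 0. Of the ratios within a library, 4 were computed, and EIF4B to EIF4H was the one that moved farthest. Adding pseudogene counts gave log2 changes of -0.18 for EIF4EBP2 to EIF4E and 0.01 for EIF4EBP1 to EIF4E.

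**Figure D4:**
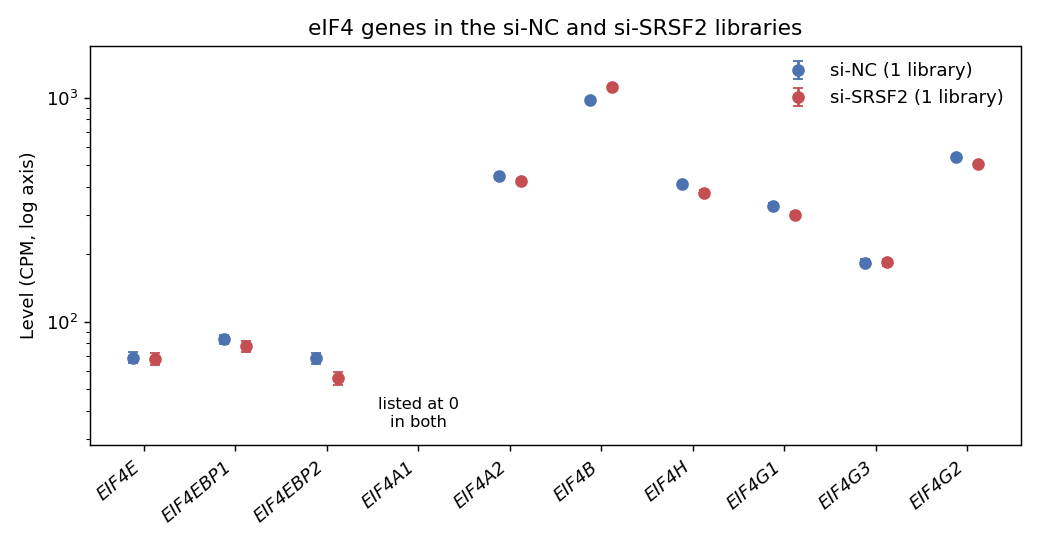
Level of each eIF4 gene in CPM (y axis, log scale) in the si-NC library (blue) and the si-SRSF2 library (red); bars are 95% counting intervals and are smaller than the point for most genes. EIF4B is the highest at 976 and 1117 CPM, EIF4EBP2 is the lowest in si-SRSF2 at 55.7 CPM, and EIF4A1 is listed at 0 in both.

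Levels of different genes were compared per kb of canonical transcript, which gave the same order in both libraries. In 1 pair, EIF4G3 and EIF4E, the levels overlapped within counting error. EIF4B led at 253 CPM per kb in si-NC against 290 in si-SRSF2, followed by EIF4A2 at 237 and 224. EIF4H came next at 160 and 147 CPM per kb, and EIF4G2 at 143 and 133. EIF4EBP1 stood at 101 and 93.6 CPM per kb and EIF4G1 at 60.8 and 55.4. EIF4G3 and EIF4E could not be ordered, since their si-NC levels of 28.7 (27.8 to 29.6) and 28.4 (26.96 to 29.99) CPM per kb overlapped within counting error. EIF4EBP2 was the lowest at 9.14 and 7.44 CPM per kb. Its place rests on a transcript of 7491 nucleotides of which 360 are coding. Per kb of coding sequence it ranked 6 of the 9 in both libraries, and EIF4H ranked 1 in si-NC and 2, behind EIF4B, in si-SRSF2, so the order of levels depends on the length used.

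Several members have processed pseudogenes, intronless copies to which reads of the parent gene can align. The table held 39 such entries, of which 23 had no count and 6 had at least 50 counts in a library. EIF4A1 apart, which was at 0, EIF4EP2 was the largest beside its parent. It had 430 counts in si-NC against 226 in si-SRSF2, equal to 31.2% and 22.8% of the EIF4E count, and 88.1% of its 31-base words occur in EIF4E. Whether the interval of EIF4E includes 0 therefore depends on where these reads are placed. EIF4BP6 had 394 and 396 counts, a log2 ratio of 0.45 (0.26 to 0.67), and EIF4BP7 had 264 and 260, a log2 ratio of 0.42 (0.18 to 0.69). EIF4BP3, with 163 and 116 counts, was at -0.03 (-0.39 to 0.32). The ratio of EIF4B was 0.20 with all of its pseudogenes added. EIF4HP1 had 132 and 80 counts, and with all pseudogenes added the ratio of EIF4H was -0.13, beside -0.12 without them. Reads shared between a gene and such a copy cannot be told apart in these counts.

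The first bases of an mRNA bear on its dependence on eIF4F and mTORC1. Transcripts that start with a C and a run of pyrimidines, known as TOP mRNAs, encode many parts of the translation machinery. RefSeq start sites (GRCh38.p14) were given for 8 of the 9 members that passed the filter and for EIF4A1. A C followed by 4 pyrimidines at a listed start was found for EIF4B and EIF4A2 and not for the other 7. The lines below show 10 bases before the start and the transcript's first bases, with the start and the pyrimidine run in capitals, and EIF4H as an example without it.
EIF4B (chr12, start 53006456): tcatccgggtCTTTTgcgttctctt
EIF4A2 (chr3, start 186783577): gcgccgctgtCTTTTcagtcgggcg
EIF4H (chr7, start 74174356): ctcgctcaccctggttcctctcgga
This start was present in 4.07% of all 35116 listed windows, and 5.14% of 27305 genes had it at any listed start. These shares also cover genes that did not pass the filter. EIF4B, which carries it, was the highest member at 0.19, while EIF4A2, which also carries it, was at -0.08. Among the genes tested that have a listed start, the median log2 ratio was -0.02 for 674 genes with this sequence and -0.04 for 8293 without it.

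The siRNA was searched for in the members, because a short match to its guide strand could lower a transcript without SRSF2. The sense strands are given as listed by the study, without overhangs. The guide seed pairs with GTCGCGA for si-SRSF2 and with TGTCACG for si-NC.
si-SRSF2: uccaaauccaggucgcgau
si-NC: uucuucgaacgugucacgu
No member held the full site of either siRNA, and SRSF2 held that of si-SRSF2. The seed site of si-SRSF2 was found once in EIF4H, at nucleotides 680 to 686 of EIF4H-201 within its coding sequence, and in no other member. It is shown in capitals with its surroundings.
EIF4H seed site: aacctcgaacaGTCGCGAcgcccctcaat
The same 7 bases occurred in 359 of 20046 canonical transcripts (1.79%). The seed site of the control siRNA, found in 6.26% of transcripts, occurred once in EIF4A1 and once in EIF4G3. The part of these matches in the log2 ratio of EIF4H, -0.12, was not tested.

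The genes around the eIF4F complex were described list by list. Of 18 other eIF4-named genes and factors at the cap or the poly(A) tail, 17 passed the filter, none differed by 1.5-fold (7.69% of all genes did), and the median log2 ratio was 0.03 with 9 above 0 and 8 below. MKNK2, a kinase that phosphorylates eIF4E, was the highest, with 1294 counts in si-NC against 1158 in si-SRSF2 (0.30, 0.18 to 0.41). PAIP2B, an inhibitor of poly(A)-binding protein, was the lowest, with 500 and 285 counts (-0.35, -0.57 to -0.14). The interval lay above a ratio of 1 for 7 of the 17 and below it for 6, where 21.0% and 26.7% of all genes did.

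The mTORC1 list holds the kinase that releases eIF4E from its inhibitors, with its regulators and targets. Of 21 genes, 20 passed the filter, and the median was 0.03 with 11 above 0 and 9 below. The interval lay above a ratio of 1 for 6 and below it for 6 (21.0% and 26.7% of all genes). SESN1, a stress-induced inhibitor of mTORC1, was the highest, with 607 counts in si-NC against 571 in si-SRSF2 (0.36, 0.20 to 0.54). RRAGC, a GTPase that brings mTORC1 to the lysosome, was the lowest of those above 5 CPM, with 1164 and 627 counts (-0.43, -0.58 to -0.29). MTOR itself, named after its values were seen, had 1973 and 1119 counts (-0.36, -0.47 to -0.25). The single gene past 1.5-fold was DEPTOR, an inhibitor bound to mTOR, with 59 and 17 counts (-1.05, -2.21 to -0.54), so 1 of 20 was past it in the direction that 3.52% of all genes were. It lay below the 5 CPM set for naming and was also named after its values were seen.

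The eIF3 complex binds both the eIF4G scaffold and the small ribosomal subunit. Of 13 subunits, 12 passed the filter, and their median of 0.19 was above that of all genes, with 8 above 0 and 4 below. The interval lay above a ratio of 1 for 8 of them and below it for EIF3E alone, which had 19852 and 12730 counts (-0.18, -0.22 to -0.15). Over all genes these shares were 21.0% and 26.7%. They were taken over genes of all levels and not at the level of the subunits, so 8 of 12 is not read as an excess. EIF3C was the highest and the single subunit past 1.5-fold, with 140 counts in si-NC against 214 in si-SRSF2 (1.02, 0.76 to 1.39), and 4.18% of all genes were at least 1.5-fold higher. Its value is uncertain, because it has a near-identical copy, EIF3CL, with 14 and 11 counts, and reads on both may have been split or left out. EIF3K, with 12 and 8 counts, did not pass the filter. How its locus was counted was not examined, so no level was read from these counts.

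The last list holds the factors that load the initiator tRNA and join the subunits. All 21 passed the filter and none differed by 1.5-fold, as 7.69% of all genes did. The median was -0.01, or 0.01 with upper-quartile factors, with 10 above 0 and 11 below. MCTS1, which acts with DENR in reinitiation, was the highest, with 522 counts in si-NC against 504 in si-SRSF2 (0.40, 0.23 to 0.59). EIF2B3, a subunit of the exchange factor for eIF2, was the lowest, with 274 and 149 counts (-0.40, -0.72 to -0.13). The interval lay above a ratio of 1 for 7 of the 21 and below it for 5 (21.0% and 26.7% of all genes).

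**Figure D5:**
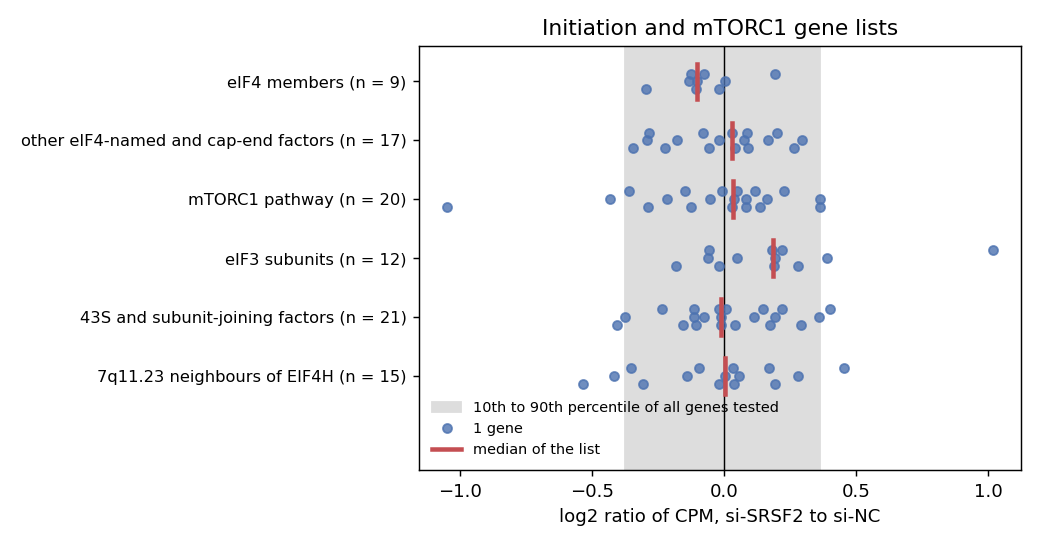
Log2 ratio of si-SRSF2 over si-NC (x axis) for each gene that passed the filter in the eIF4 set and in 5 lists (y axis); a point is 1 gene, the red bar is the median of the list and the grey band spans the 10th to 90th percentile of all genes tested. The eIF4 set centres at -0.10 and the eIF3 subunits at 0.19, and EIF3C at 1.02 and DEPTOR at -1.05 are the farthest of the points outside the band.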

How the data were processed

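Strand-specific mRNA libraries made from total RNA of RKO cells were sequenced as 150 bp paired-end reads, 1 for si-NC and 1 for si-SRSF2. The authors aligned reads to GRCh38 with HISAT2 2.0.4 (submitters' processing notes) and deposited raw counts per gene made with HTSeq. The strand setting of the counting and the treatment of overlapping genes were not given in the sources used here. From the counts, CPM were computed on TMM library sizes (edgeR 4.0.16, R 4.3.3), and log2 ratios with a pseudocount of 0.5 CPM for genes that averaged 1 CPM or more. Intervals are 95% Clopper-Pearson intervals of the ratio of counts, without the pseudocount (SciPy 1.17.1). They narrow with counts, and the shares of all genes with an interval off 1 are not matched to the lists by level. Ratios between members have conditional exact intervals. PCR reads without molecular identifiers are not independent molecules, so the intervals, and the limit set at 3 counts, hold for counting error alone. With 1 library per group nothing was tested. A gene was called at 1.5-fold. The members and lists were chosen with earlier results of these data known. The genes named were the members, SRSF2, and in each list the highest and lowest gene and those past 1.5-fold with a mean of at least 5 CPM. Pseudogenes and intronic small RNAs were given by counts. METTL27 was matched through its older symbol WBSCR27. Exons, overlaps and transcripts came from GENCODE 44, and start sites from RefSeq. The scripts were tested on simulated data. Alternatives were total counts, DESeq2 1.42.0 size factors, upper-quartile factors, libraries without mitochondrial genes and the 20 most abundant genes, other pseudocounts and filters, added pseudogene counts and coding length.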

Additional observations from a re-analysis of the deposited data

How the results depend on the processing

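No paired analysis was possible because si-NC and si-SRSF2 were sequenced once each, and for the same reason no replicate could be left out. Under the 4 other scalings and pseudocounts of 0.1 and 2 CPM, the log2 ratio of EIF4H ranged from -0.12 to -0.10, EIF4B from 0.19 to 0.22 and EIF4EBP2 from -0.30 to -0.27. EIF4E ranged from -0.02 to 0.007. No member passed 1.5-fold in these settings. With a pseudocount of 2 CPM, 254 genes were at least 1.5-fold higher and 220 lower, against 527 and 444, and 0 of the intronic small RNAs were lower, against 2. With no filter on low counts, 1262 genes were higher and 837 lower, and 1 small RNA was higher, against 0. With a mean of at least 5 CPM, 202 genes were higher and 237 lower, and 0 mTORC1 genes were lower, against 1, since DEPTOR was left out. With a pseudocount of 0.1 CPM, 1 neighbour of EIF4H at 7q11.23 was lower and 1 small RNA was higher, against 0 of each. Coding length changed the rank of levels per kb of all 9 members in si-NC. Depth limits EIF4E, EIF4EBP1 and EIF4EBP2 most, which have the fewest counts.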

Other observations

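EIF4H lies among genes of 7q11.23, of which 19 were listed and 15 passed the filter. Their median log2 ratio was 0.004, with 8 above 0 and 7 below, and none differed by 1.5-fold (7.69% of all genes did). BCL7B, a subunit of a chromatin remodelling complex, was the highest, with 490 counts in si-NC against 491 in si-SRSF2 (0.45, 0.28 to 0.64). STX1A, a membrane fusion protein, was the lowest of those above 5 CPM, with 1978 and 1077 counts (-0.42, -0.53 to -0.31). EIF4H, at -0.12, lay between them.

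Introns of the members hold 11 annotated small RNAs, of which 5 passed the filter, with a median log2 ratio of -0.25. These were mRNA libraries, not made for small RNAs, and the counts were low. MIR590, in intron 5 of EIF4H next to the cassette exon (chr7:74191198-74191294), had 39 counts in si-NC against 12 in si-SRSF2 (-0.89, -2.31 to -0.28). SNORA48, in intron 3 of EIF4A1, had 58 and 22 counts (-0.76, -1.72 to -0.21). Both were past 1.5-fold, as 3.52% of genes of all levels were in the same direction, a share not taken at their low level, and neither was with a pseudocount of 2 CPM. MIR590 stood at 1.96 CPM (si-NC) and 0.827 CPM (si-SRSF2), so it passed the filter through si-NC. Both were named after their values were seen. On the other side of 0 stood SNORA67 in EIF4A1, with 20 and 23 counts (0.47), and SNORD2 in EIF4A2, which did not pass the filter, with 10 and 16 counts (0.68), both with intervals that included 0. The intervals of SNORD10 in EIF4A1 and of SNORD97 in EIF4G2, with 26 and 22 counts, also included 0. Reads of unspliced host introns and of the small RNAs cannot be told apart in these counts.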
